A study of Mus musculus with 22 samples.

Results

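The genes described here are 9 genes by which tanycytes are recognised or thyroid hormone is activated, bound and sensed in the hypothalamus: Dio2, Crym, Thra, Thrb, Rax, Col23a1, Vim, Nes and Fabp7. They were chosen by name, as the probe sets whose platform gene symbol is one of the 9, and each gene had 1 probe set among the 18704 genes with a symbol of their own. Of the 9 genes, 6 reached a level above the array median in 3 or more arrays and so were among the 9880 genes tested. Rax, Dio2 and Nes were set aside by that rule, being above the median in 0, 1 and 0 of the 22 arrays, and their differences come from a fit with no filter on level.

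The samples were whole hypothalami of lean male C57BL/6J mice, aged 8 weeks and kept on normal chow for 2 weeks, with no genetic change named in the labels. All mice received intraperitoneal injections. Control mice received the solvent DMSO at 25 ul per day and were sampled at 6 h, 1 day or 4 days, with 4 arrays at each time. The other mice received celastrol in DMSO and were sampled at the same times, with 4 arrays for 6 h and 3 arrays for each later time. A dose of 250 ug/kg is given in the labels for 6 h, and only a volume of 100 ul for the later times. Celastrol is a triterpenoid from the thunder god vine that lowers food intake in obese mice. The labels call the arrays of a group biological replicates and name neither the hour of day of sampling nor the day of hybridisation. The model is a limited one for these genes, because the mice were lean and the tissue was the whole hypothalamus, in which tanycytes are a minor population.

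Tanycytes are elongated glial cells that line the floor and lower walls of the third ventricle and send a process into the hypothalamus. They take up thyroxine, and type 2 deiodinase, the product of Dio2, converts it to the active hormone triiodothyronine, which reaches neurons and binds the receptors encoded by Thra and Thrb. The transcription factor Rax and the collagen gene Col23a1 mark tanycytes, whereas Vim, Nes and Fabp7 are shared with astrocytes, other ventricular cells or neural progenitors.

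The labelled tissue was checked against its marker genes. Of 14 genes of hypothalamic neurons, 11 were tested and 9 were above the array median in all arrays. Of 16 other tanycyte genes, 10 were tested and 7 were above the median in all arrays. Of all 18704 genes, 9880 were tested, so the tanycyte count alone does not show a tanycyte signal. Genes of the neighbouring pituitary varied widely between arrays of a group, and their levels are given beside the Fabp7 results. The defining tanycyte gene Rax was below the median of every array, and the values alone do not tell it from background. In RNA of a whole tissue, fewer cells of a type and less RNA per cell cannot be told apart.

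The sequence just before a transcription start is shown for the 4 members described most closely below that had an entry in RefSeq (build GRCm38.p6). They are Fabp7, the only member that passed the test, and Dio2, the activating enzyme. Thrb and Col23a1, whose deviations ran in opposite directions, are the others. Each is 250 bases long and is read 5′ to 3′ towards the start. The capitals mark AGGTCA, the half-site that nuclear receptors including thyroid hormone receptors bind, or its reverse complement TGACCT. In Dio2 they mark TGACGTCA, the cAMP response element.
Fabp7, chr10:57784673-57784922, plus strand: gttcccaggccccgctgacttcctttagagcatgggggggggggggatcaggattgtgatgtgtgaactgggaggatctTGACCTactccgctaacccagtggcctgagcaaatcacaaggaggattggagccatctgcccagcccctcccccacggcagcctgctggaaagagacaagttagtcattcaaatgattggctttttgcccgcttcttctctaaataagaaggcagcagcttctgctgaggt
Thrb, chr14:17660710-17660959, plus strand: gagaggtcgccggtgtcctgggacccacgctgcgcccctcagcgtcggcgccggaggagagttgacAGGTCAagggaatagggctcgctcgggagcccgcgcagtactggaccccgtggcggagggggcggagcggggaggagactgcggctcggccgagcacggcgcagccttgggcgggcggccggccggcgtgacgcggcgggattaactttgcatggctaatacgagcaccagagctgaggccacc
Col23a1, chr11:51289670-51289919, plus strand: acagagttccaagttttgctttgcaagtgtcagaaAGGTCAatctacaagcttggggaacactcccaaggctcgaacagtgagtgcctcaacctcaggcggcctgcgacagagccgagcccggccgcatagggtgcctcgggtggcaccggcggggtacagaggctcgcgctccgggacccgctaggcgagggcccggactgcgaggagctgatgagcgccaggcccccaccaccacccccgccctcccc
Dio2, chr12:90739039-90739288, minus strand: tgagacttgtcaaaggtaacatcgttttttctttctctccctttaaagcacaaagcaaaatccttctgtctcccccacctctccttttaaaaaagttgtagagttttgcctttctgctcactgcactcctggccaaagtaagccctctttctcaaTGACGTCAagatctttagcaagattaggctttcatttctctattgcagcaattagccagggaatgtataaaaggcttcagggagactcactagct
The half-site began 171 bases before the start in Fabp7, 184 in Thrb and 215 in Col23a1. The starts shown for Thrb and Col23a1 lie inside the spans that RefSeq gives these genes, which begin at bases 17659225 and 51289679. The Thrb window thus lies within the gene, and most of the Col23a1 window does. Searched on both strands, it lies in 14.0% of 32851 RefSeq mouse windows of this length. The element in Dio2 began 95 bases before the start and lies in 1.55% of those windows. A second Thrb window held instead CACGTG, the E-box, which 6.02% of windows hold, and the Nes and Vim windows held none of the 3 motifs. A match of letters is a description and shows no binding.

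**Figure D1:**
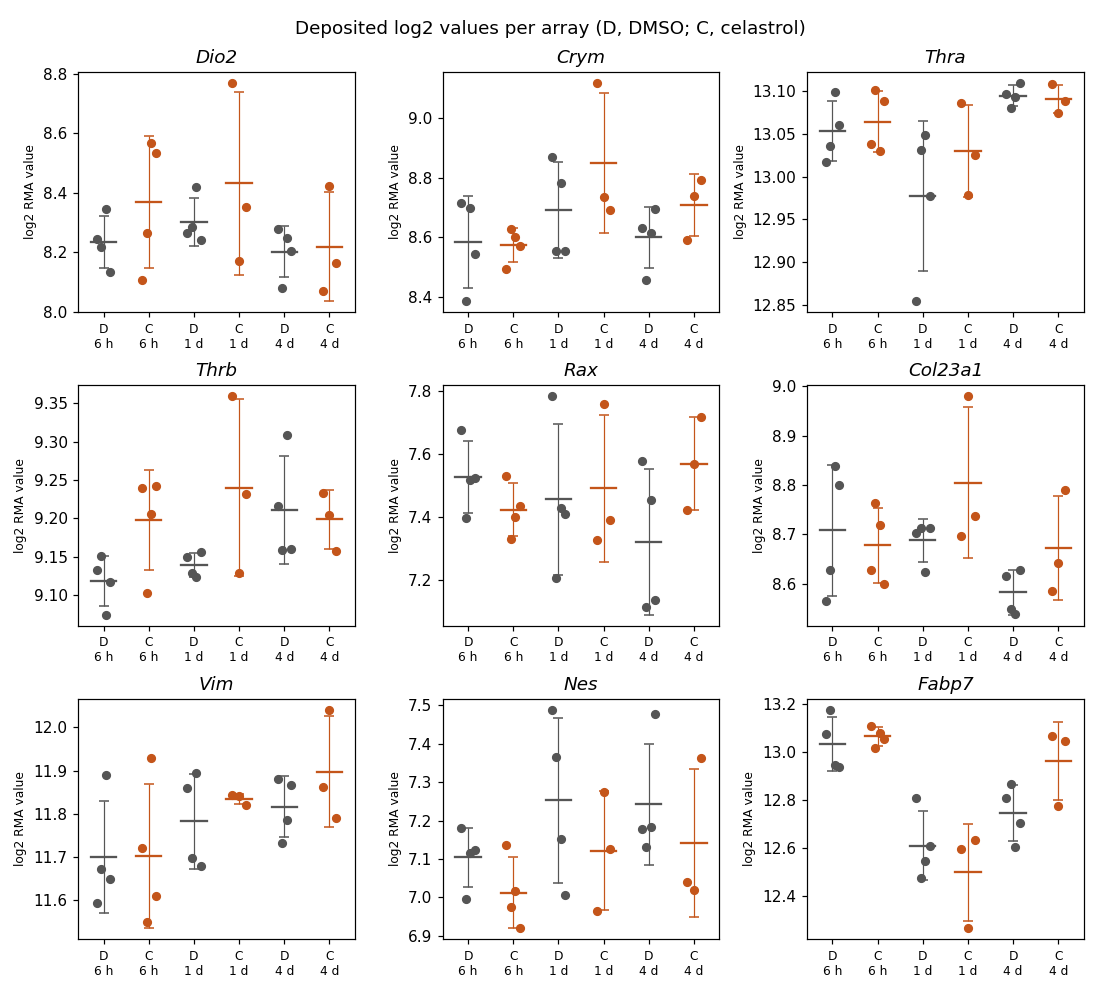
Deposited log2 values of the 9 genes, 1 panel per gene, for DMSO (D, grey) and celastrol (C, orange) by time. Each point is 1 array, horizontal lines are group means and error bars are 1 SD (n = 4, or 3 for celastrol at 1 day and 4 days); the vertical scale differs between panels. The Fabp7 arrays at 1 day all lie below those at 6 h in both treatments.

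The comparison of celastrol with DMSO asks whether the compound moved these genes in the hypothalamus of lean mice. Of the 6 tested members, 0 passed limma's test (p adjusted by Benjamini-Hochberg across the tested genes, threshold 0.05) at 6 h (0% of all tested genes were called), at 1 day (0%), at 4 days (0.0506%) or in the average of the 3 times (0.0607%). The number of tested genes with an unadjusted p under 0.05 was 505 at 6 h and 658 at 1 day, and members among them numbered 0 at both times. At 4 days it was 362, with 1 member among them, Fabp7 (0.22, SE 0.09, unadjusted p = 0.0260, adjusted p = 1.00). The exact permutation p of Fabp7 at that time, 2-sided, was 0.143. With no filter on level, 0% of genes were called at 6 h, 0.00535% at 1 day, 0.016% at 4 days and 0.0374% in the average, and Rax, Dio2 and Nes were not among them. The celastrol and DMSO arrays of the same time overlapped for each of the 9 members at each time, whereas they did not overlap for 2.76% of tested genes at 6 h, 6.17% at 1 day and 6.33% at 4 days. Standard errors of the members' differences at a single time lay between 0.04 and 0.13 on the log2 scale. A difference of that size in these genes was not detectable with this number of arrays. Larger ones, such as 0.22 for Fabp7 at 4 days, did not pass either. The lack of calls is no sign that the groups were alike.

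**Figure D2:**
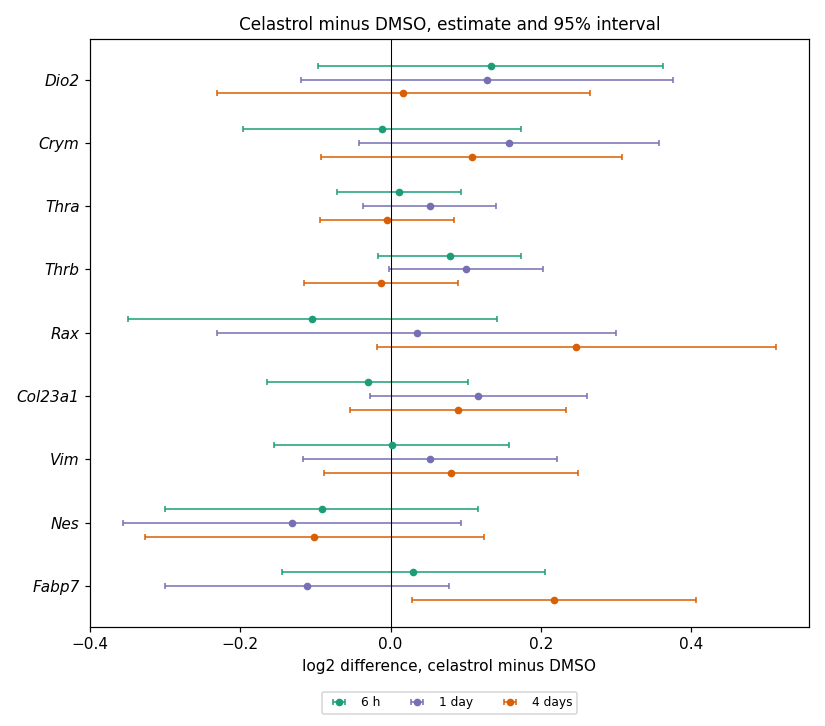
Celastrol minus DMSO for the 9 genes on the log2 scale at 6 h (green), 1 day (purple) and 4 days (orange); points are limma estimates and bars 95% intervals, with 4 against 4 arrays at 6 h and 3 against 4 at 1 day and 4 days. The interval of Fabp7 at 4 days lies above 0, and no member passed after adjustment.

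Dio2 encodes the deiodinase that activates thyroxine. Its log2 values at 6 h were 8.25, 8.22, 8.34 and 8.13 in DMSO and 8.11, 8.26, 8.57 and 8.53 in celastrol. At 1 day they were 8.26, 8.28, 8.42 and 8.24 in DMSO and 8.77, 8.17 and 8.35 in celastrol. At 4 days they were 8.28, 8.08, 8.25 and 8.20 in DMSO and 8.07, 8.42 and 8.16 in celastrol. The 3 highest Dio2 values of the series were in celastrol arrays, at 1 day and 6 h, and at each time the lowest array was also a celastrol array. The celastrol difference was 0.13 at 6 h (SE 0.11), 0.13 at 1 day (SE 0.12) and 0.02 at 4 days (SE 0.12). At 1 day the sign rested on celastrol replicate 1, without which the difference was -0.04. The within-group SD of Dio2 was 0.17 on the log2 scale.

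Crym encodes mu-crystallin, a cytosolic protein that binds triiodothyronine. Its celastrol arrays at 1 day read 9.12, 8.74 and 8.69, and the DMSO arrays of that time 8.87, 8.56, 8.78 and 8.55. Each of the celastrol arrays exceeded the mean of the DMSO arrays, but the groups overlapped. The celastrol difference for Crym was -0.01 at 6 h, 0.16 at 1 day (95% interval -0.04 to 0.36) and 0.11 at 4 days (-0.09 to 0.31).

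Thra encodes the thyroid hormone receptor alpha, the main receptor of the brain. Its arrays were the most even of the 9 members, with a within-group SD of 0.05 on the log2 scale, and its values ran from 12.85 to 13.11 over the 22 arrays. The celastrol difference of Thra was 0.01 at 6 h (95% interval -0.07 to 0.09), 0.05 at 1 day (-0.04 to 0.14) and -0.00 at 4 days (-0.09 to 0.08). The intervals of Thra are the narrowest among the members.

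Thrb encodes the receptor beta, which takes part in the negative feedback of the hormone on the hypothalamus. At 6 h its values were 9.13, 9.15, 9.07 and 9.12 in DMSO and 9.24, 9.10, 9.21 and 9.24 in celastrol, so that 3 of 4 celastrol arrays lay above all DMSO arrays. At 1 day they were 9.15, 9.13, 9.12 and 9.16 in DMSO and 9.36, 9.13 and 9.23 in celastrol, with 2 of 3 celastrol arrays above all DMSO arrays. At 4 days they were 9.22, 9.16, 9.31 and 9.16 in DMSO and 9.23, 9.20 and 9.16 in celastrol, which overlapped. The celastrol difference of Thrb was 0.08 (SE 0.05), 0.10 (SE 0.05) and -0.01 (SE 0.05) in turn. Averaged over the 3 times it was 0.06 with an unadjusted p of 0.0585 and an adjusted p of 1.00 by limma, the exact permutation p, 2-sided and within times, being 0.0583.

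Rax, a homeodomain factor that marks tanycytes, had values of 7.58, 7.12, 7.45 and 7.14 in DMSO and 7.42, 7.57 and 7.72 in celastrol at 4 days. The groups overlapped, and the difference of 0.25 (95% interval -0.02 to 0.51) was the largest celastrol difference of the 9 members at any time. Its adjusted p with no filter on level was 1.00 by limma, and Rax lay below the array median throughout. Col23a1 differed between celastrol and DMSO by -0.03, 0.12 and 0.09 in order of time, each with an SE of 0.06 or 0.07.

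Vim and Nes encode intermediate filament proteins of tanycytes and of other glial and progenitor cells. Vim differed between celastrol and DMSO by 0.00, 0.05 and 0.08 at the successive times, with standard errors of 0.08. Nes was the only member whose celastrol mean was below the DMSO mean at each time, by estimates of -0.09, -0.13 and -0.10 with standard errors from 0.10 to 0.11. The average over times for Nes was -0.11 (unadjusted p = 0.0908, limma), with 3 of 10 celastrol arrays above the DMSO mean of their time.

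Whether a celastrol difference changed with time was tested as the difference of the differences. The labels give a celastrol dose for 6 h only, so time and any difference in dose cannot be told apart here. Of the 6 tested members 0 passed, against 0% of all tested genes for 1 day against 6 h, 0% for 4 days against 6 h and 0% for 4 days against 1 day. At an unadjusted p under 0.05 these tests held 817, 334 and 593 genes. The member with the largest such value among those tested was Fabp7, whose celastrol difference was -0.11 at 1 day and 0.22 at 4 days. The difference between them was 0.33 (SE 0.13, unadjusted p = 0.0183, adjusted p = 0.80, limma). With no filter on level, Rax had a larger value, 0.35 for 4 days against 6 h (SE 0.17, unadjusted p = 0.0563, limma), which did not pass.

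The time comparison among DMSO arrays shows how far the genes moved with no celastrol given. Fabp7 encodes a brain lipid-binding protein of radial glia, astrocytes and tanycytes that carries fatty acids in the cell. Its values in DMSO were 13.07, 13.18, 12.95 and 12.94 at 6 h. They were 12.81, 12.47, 12.54 and 12.61 at 1 day and 12.80, 12.87, 12.60 and 12.70 at 4 days. All 4 arrays at 1 day and all 4 at 4 days lay below all 4 at 6 h. The difference was -0.43 at 1 day (SE 0.08) and -0.29 at 4 days (SE 0.08) against 6 h, with exact permutation p = 0.0286 for each, 2-sided, the smallest that 4 against 4 arrays can give. Adjusted over all tested genes by limma and Benjamini-Hochberg, p was 0.0593 and 0.143, so neither passed. The former passed without replicate 3 of DMSO at 6 h (adjusted p = 0.0426), replicate 1 of celastrol at 6 h (adjusted p = 0.0486) or replicate 2 of celastrol at 4 days (adjusted p = 0.0464). No overlap between the DMSO groups was seen for 5.98% of tested genes at 1 day against 6 h and for 7.56% at 4 days against 6 h.

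Other members separated between DMSO times by less. Thra in DMSO was 12.85, 13.03, 13.05 and 12.98 at 1 day and 13.10, 13.08, 13.09 and 13.11 at 4 days, with no overlap, a difference of 0.12 (SE 0.04) and an adjusted p of 0.182 by limma. Thrb at 4 days lay above its 6 h arrays (0.09, SE 0.05, adjusted p = 0.343) and above its 1 day arrays (0.07, SE 0.05, adjusted p = 0.474) with no overlap in either case. Between 4 days and 1 day in DMSO 9.8% of tested genes did not overlap, so the 2 receptors are not uncommon in this respect. Among tested members 0 of 6 passed in the DMSO comparisons, where 0% of tested genes were called at 1 day against 6 h, 0.253% at 4 days against 6 h and 0.152% at 4 days against 1 day; with no filter the shares were 0%, 0.00535% and 0.00535%. The first of these comparisons held 1389 tested genes with an unadjusted p under 0.05, Fabp7 among them. Rax, Dio2 and Nes differed between DMSO times by estimates from -0.21 to 0.15, each with an SE of 0.10 to 0.12.

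**Figure D3:**
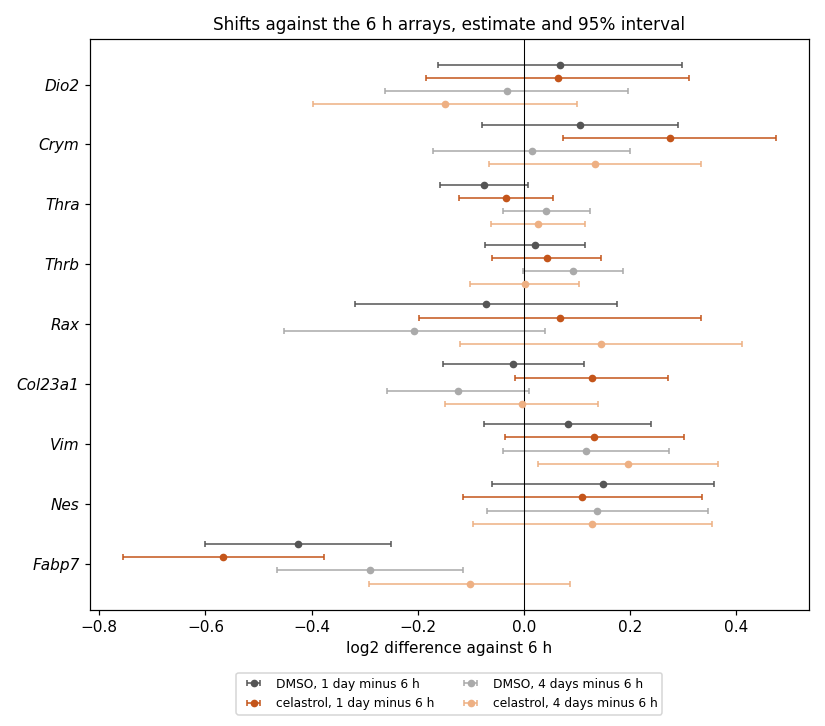
Differences of the 1 day and 4 day arrays from the 6 h arrays for the 9 genes, on the log2 scale, in DMSO (greys) and celastrol (oranges); points are limma estimates and bars 95% intervals, with 3 or 4 arrays a group. Fabp7 stands to the left, at -0.43 in DMSO and -0.57 in celastrol at 1 day.

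The same times were compared among the celastrol arrays, which share the model's estimate of spread with the DMSO arrays. The limit on dose given above also holds for these comparisons and for the averages over both treatments. Fabp7 in celastrol was 13.11, 13.02, 13.08 and 13.05 at 6 h. It was 12.60, 12.26 and 12.63 at 1 day and 13.07, 12.77 and 13.04 at 4 days. All 3 arrays at 1 day lay below all arrays at 6 h and at 4 days, and the arrays at 4 days overlapped those at 6 h. Fabp7 fell by 0.57 on the log2 scale from 6 h to 1 day (SE 0.09, adjusted p = 0.0146, limma; exact permutation p = 0.0286, 2-sided), which made it 1 of 2 genes called in this comparison. The members called thus numbered 1 of 6, against 0.0202% of all tested genes. The adjusted p rose past the threshold without replicate 2 of celastrol at 1 day (-0.45, adjusted p = 0.304) and without replicate 1 (adjusted p = 0.0836) or replicate 3 (adjusted p = 0.0745) of celastrol at 6 h. It was 0.0617 with no filter on level and 0.353 with only these groups in the fit.

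The remaining celastrol times gave no further call. From 1 day to 4 days Fabp7 was higher in celastrol by an estimate of 0.46 (SE 0.10) with an adjusted p of 0.106 by limma; 0% of tested genes were called there, 1081 having an unadjusted p under 0.05, and 15.3% did not overlap. From 6 h to 4 days the Fabp7 difference in celastrol was -0.10 (SE 0.09), where 1.53% of tested genes were called and 18.6% did not overlap. Crym at 1 day lay above Crym at 6 h in celastrol with no overlap, at 8.50, 8.63, 8.60 and 8.57 at 6 h against 9.12, 8.74 and 8.69 at 1 day. This Crym difference was 0.27 (SE 0.10, adjusted p = 0.527, limma), and 7.78% of tested genes did not overlap.

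Averaged over both treatments, Fabp7 fell by 0.50 on the log2 scale from 6 h to 1 day, so that its signal fell by 29.1%. The SE was 0.06, all 7 arrays at 1 day lay below the 6 h mean of their treatment, and the adjusted p was 0.000598 by limma. Fabp7 had the smallest p of the 9880 tested genes, of which 0.172% were called, and the exact permutation p within treatments, 2-sided, was 0.000408. The 1 day arrays lay apart from the 6 h arrays within both treatments for 0.476% of tested genes, Fabp7 being 1 of those 47. The averaged comparisons were added after the DMSO values of Fabp7 had been seen. The call held in 32 of 32 alternative settings, with estimates from -0.53 to -0.44. From 6 h to 4 days Fabp7 fell by 0.20 (SE 0.06, adjusted p = 0.0490, 9.5% of tested genes called), and it rose by 0.30 from 1 day to 4 days (SE 0.06, adjusted p = 0.0345, 0.719% called). Those calls held in 16 and 24 of 32 settings. The Fabp7 call from 6 h to 4 days was lost (adjusted p from 0.0509 to 0.147) on leaving out replicate 1, 2 or 4 of DMSO at 6 h, 3 or 4 of DMSO at 1 day, 1, 3 or 4 of DMSO at 4 days, any of celastrol at 6 h, or 2 or 3 of celastrol at 4 days. The call from 1 day to 4 days was lost (adjusted p from 0.0581 to 0.0843) without replicate 3 of DMSO at 1 day, 2 or 4 of DMSO at 4 days, 2 of celastrol at 1 day, or 1 or 3 of celastrol at 4 days. Over group means the order of Fabp7 was celastrol 6 h (13.06), DMSO 6 h (13.03), celastrol 4 days (12.96), DMSO 4 days (12.74), DMSO 1 day (12.61) and celastrol 1 day (12.50), and the neighbours in this order overlapped in their arrays.

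**Figure D4:**
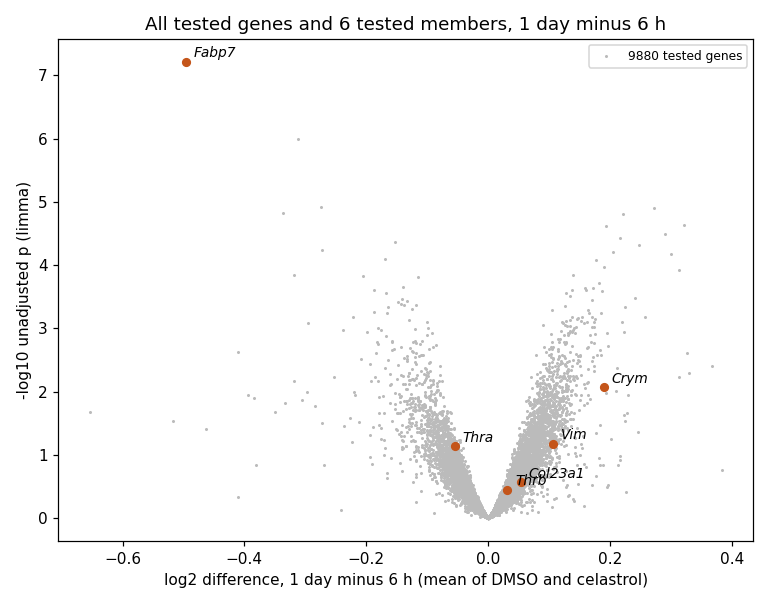
Each grey point is 1 of 9880 tested genes, with the log2 difference of 1 day minus 6 h averaged over DMSO and celastrol (7 against 8 arrays) on the horizontal axis and -log10 of the unadjusted limma p on the vertical axis; orange points are the 6 tested members. Fabp7 is the uppermost point, and the other 5 members have larger p.

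Genes that share cell types with Fabp7 were set beside it. Of 10 astrocyte genes, all tested, 7 were higher at 1 day than at 6 h in the treatment average, the median being 0.05 against 0.01 over all genes, and 0 passed. The mean astrocyte level ran from 11.60 to 11.66 over the DMSO arrays at 6 h and from 11.65 to 11.71 at 1 day. In celastrol it ran from 11.65 to 11.81 at 6 h and from 11.70 to 11.75 at 1 day. The 1 day range of the astrocyte list thus lay within or partly above that of 6 h. Of 10 tested other tanycyte genes, 7 were higher and 3 lower, with a median of 0.03 and 0 called. Of 13 ependymal genes only 4 were tested; 3 of them were lower, with a median of -0.12 and 0 called. From 6 h to 4 days, again in the treatment average, 6 of 10 astrocyte genes were lower (median -0.01), 7 of 10 other tanycyte genes (median -0.02) and 4 of 4 ependymal genes (median -0.15), with 0 called in each list. From 1 day to 4 days, when Fabp7 rose, 8 of 10 astrocyte genes were lower (median -0.05) and 1 of them, Mlc1, was called (-0.18, adjusted p = 0.0314); 7 of 10 tanycyte genes and 2 of 4 ependymal genes were lower, with 0 called.

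Pituitary genes were set beside Fabp7 in the same way. Of 8 such genes 3 were tested, and 0 were above the median in all arrays. Their mean level ran from 7.72 to 10.99 over the DMSO arrays at 6 h, from 7.90 to 9.71 at 1 day and from 7.69 to 8.88 at 4 days. In celastrol it ran from 7.80 to 8.96 at 6 h, from 8.12 to 8.86 at 1 day and from 7.82 to 10.54 at 4 days. In the treatment average 3 of 3 were lower at 1 day than at 6 h (median -0.24), as Fabp7 was, with 0 called. In that average 3 of 3 were also lower at 4 days than at 6 h (median -0.12), with 0 called. From 1 day to 4 days 2 were higher and 1 lower (median 0.00), with 0 called. In DMSO alone 3 of 3 were lower at 1 day than at 6 h, by a median of -0.54 with 0 called. In celastrol alone 3 of 3 were higher, by a median of 0.12 with 0 called, and Fabp7 fell. The Fabp7 call from 6 h to 1 day in the treatment average held on leaving out each array in turn. That check cannot address pituitary levels that vary over many arrays. The part of pituitary RNA in the Fabp7 results was not tested.

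Since the hour of sampling was not given, 15 tested genes of the daily clock, a list added after Fabp7 had been seen, were also examined in the treatment average. From 6 h to 1 day 9 were higher and 6 lower, the median was 0.00 and 0 passed. The smallest p among them belonged to Per3 (0.14, unadjusted p = 0.000729, adjusted p = 0.113, limma), Clock (-0.07, unadjusted p = 0.0124) and Arntl (-0.11, unadjusted p = 0.0138). Cry1 had an unadjusted p of 0.0370 (0.12). Among all tested genes 1298 had an unadjusted p under 0.05 there. The other clock genes did not reach it and differed by -0.14 (Rora) to 0.11 (Ciart), with Per2 at 0.00 and Dbp at 0.02. From 6 h to 4 days 3 of the 15 clock genes were called, against 9.5% of all tested genes: Cry1 rose by 0.23 (adjusted p = 0.0135), Per3 rose by 0.12 (adjusted p = 0.0317) and Nr1d2 fell by 0.10 (adjusted p = 0.0141). From 1 day to 4 days Nr1d2 was the 1 clock gene called, against 0.719% of all tested genes, and fell by 0.11 (adjusted p = 0.0367). The part of the hour of sampling in the Fabp7 results was not tested.

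The other members over time were as follows. Vim was higher at 4 days than at 6 h in all 7 arrays against the mean of their treatment, by an estimate of 0.16 (SE 0.06), but its adjusted p was 0.0735 by limma. It passed without replicate 3 of DMSO at 6 h (adjusted p = 0.0246) and without replicate 3 of celastrol at 6 h (adjusted p = 0.0220), the arrays with the highest Vim of their groups. Thra was higher at 4 days than at 1 day by an estimate of 0.09 (SE 0.03, adjusted p = 0.12), and Crym at 1 day than at 6 h by 0.19 (SE 0.07, adjusted p = 0.234). Col23a1 was lower at 4 days than at 1 day by an estimate of -0.12 (SE 0.05, adjusted p = 0.197).

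Further genes of thyroid hormone supply and action were followed as a list of 28, of which 25 had a probe set and 16 were tested. In the celastrol comparisons 0 of 16 passed at any time. The smallest p at 1 day belonged to Slco1a4, an organic anion transporter that can carry thyroxine (-0.17, SE 0.06, adjusted p = 0.698, limma), and then to Klf9, a receptor target gene (0.18, SE 0.08, adjusted p = 0.72). At 6 h they belonged to Trhr, the receptor of thyrotropin-releasing hormone (0.16, SE 0.06), and Rxra, a partner of the thyroid hormone receptors (0.10, SE 0.05), each with an adjusted p of 0.895. At 4 days Slco1a4 and Trhr each differed by -0.10 (SE 0.06). The list's median celastrol difference was 0.04, 0.01 and -0.01 at the 3 times, beside 0.02, -0.01 and 0.01 over all tested genes.

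Over time, 3 of these 16 genes passed between 6 h and 4 days in the treatment average, a share to be read against 9.5% of all tested genes. Hr, a corepressor gene that thyroid hormone induces, fell by 0.24 on the log2 scale (SE 0.06, adjusted p = 0.0201). Camk4, a calcium-dependent kinase gene, rose by 0.13 (SE 0.04, adjusted p = 0.0273), and Trhde, which encodes the enzyme that degrades thyrotropin-releasing hormone, rose by 0.16 (SE 0.04, adjusted p = 0.0276). These 3 calls were not followed through the alternative settings. In celastrol alone Hr fell by 0.37 from 6 h to 4 days (SE 0.09, adjusted p = 0.0357), where 1.53% of tested genes were called. The DMSO comparisons called 0 of the 16, and from 6 h to 4 days 0.253% of tested genes. The celastrol difference of Hr at 4 days minus that at 6 h was -0.27 (SE 0.12, adjusted p = 0.997, limma) and did not pass.

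Of 16 other tanycyte genes 10 were tested and 0 passed in any comparison. With celastrol at 1 day the smallest p belonged to Sox2, a stem cell factor (-0.20, SE 0.06, adjusted p = 0.698, limma), and at 4 days to Cntfr, the receptor of ciliary neurotrophic factor (-0.09, SE 0.04, adjusted p = 1.00). Between 1 day and 6 h in the treatment average they belonged to Sox2 (-0.13, SE 0.04) and the orphan receptor Gpr50 (0.23, SE 0.09). The widest range of group means in this list was that of Scn7a, a sodium channel gene, from 9.68 in celastrol at 4 days to 10.09 in celastrol at 1 day. Between 1 day and 4 days Scn7a differed by -0.39 in the treatment average (SE 0.14, adjusted p = 0.143).

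How the members varied together was taken from the deviations of the 22 arrays from their group means, for 36 pairs, with 100000 permutations of arrays within groups. The pair with the smallest p was Col23a1 and Thrb, at Pearson r = -0.70 (permutation p = 0.00136, adjusted over the 36 pairs 0.0490) and Spearman rho = -0.69 (permutation p = 0.00165, adjusted 0.0594). Without the 2 arrays farthest from the median of Col23a1, r was -0.59. Dio2 and Crym followed at r = 0.59 (permutation p = 0.0114, adjusted 0.171) and rho = 0.52 (adjusted 0.318), and r was 0.44 without the 2 farthest arrays. Rax and Thra had r = -0.62 (permutation p = 0.0142, adjusted 0.171) and rho = -0.50 (adjusted 0.433), and r was -0.37 without the 2 farthest arrays. Only the first pair passed after adjustment, by Pearson's r and not by Spearman's rho. The receptors Thra and Thrb showed no relation past the threshold (r = 0.06, permutation p = 0.824, adjusted 0.975).

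**Figure D5:**
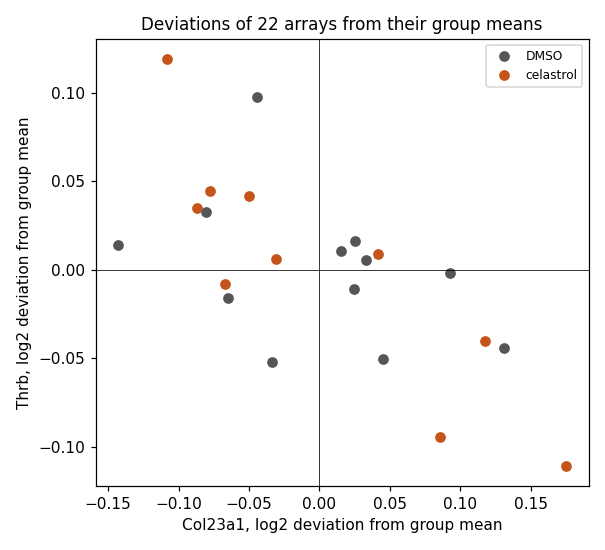
Deviation of each of the 22 arrays from its group mean, in log2 units, for Col23a1 (horizontal) and Thrb (vertical), DMSO in grey and celastrol in orange. Arrays with Col23a1 above their group mean tend to lie below it for Thrb (r = -0.70).

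By the same deviations, the 3 tested genes most like each tested member were listed as a description, with r over 22 arrays that share each array's normalization. Fabp7 was followed most closely by 2610524H06Rik (r = 0.83), Cyb5a (0.80) and Rbm4b (0.79). Thra was followed by Slc25a33 (0.90), Jade2 (0.88) and Pacsin1 (0.86), and Thrb by 2700062C07Rik (0.85), Aqr (0.85) and Derl2 (0.80). Crym had Rnf6 (0.79), Plat (0.76) and AI837181 (0.75), Vim had Msn (0.82), Plcb3 (0.82) and Nt5dc2 (0.81), and Col23a1 had Rps19 (0.86), Mplkip (0.85) and Pon2 (0.80). None of the 18 names belongs to the other members or to the lists of thyroid hormone and tanycyte genes.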

How the data were processed

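Total RNA of 22 hypothalami was measured on Affymetrix whole-transcript arrays. Per the submitters' processing notes, the authors used RMA, which gives log2 values per probe set, to make the deposited table. The RMA version was not stated. Among 23492 probe sets, platform annotation gave 1 symbol to 20228, several to 1399 and none to 1865. Array medians lay between 8.58 and 8.66, and arrays correlated at 0.994 to 0.998 within groups. Arrays have no read depth; their number limits the precision.

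Using limma 3.58.1 (lmFit and eBayes) under R 4.3.3, the 22 arrays entered a single linear model of the 6 groups, leaving 16 residual degrees of freedom. Tests were 2-sided, with Benjamini-Hochberg adjustment over the 9880 genes that exceeded the array median in 3 or more arrays. It was tested on simulated data. Exact permutation tests exchanged labels within a time or a treatment. Figures used matplotlib 3.10.9 in Python 3.11.15. Members and gene lists were chosen with earlier results of these data known. Named were all members; from the thyroid hormone and tanycyte lists, those called or the smallest p in a comparison; and per tested member the 3 genes most like it. Comparisons among celastrol arrays, averages of both treatments and the clock list were added after seeing the data.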

Additional observations from a re-analysis of the deposited data

Results flagged for a closer look

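A single array stood apart from the other 3 of its group in 2 of the 36 groups of 4 arrays examined, where chance gives about 1.8. Nes in replicate 4 of DMSO at 4 days was 7.48, and the other arrays of that group lay between 7.13 and 7.18. Col23a1 in replicate 3 of DMSO at 1 day was 8.62, and the others lay between 8.70 and 8.71.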

How the results depend on the processing

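Of 93 member values, 74 kept their direction in all 32 alternatives run. The alternatives were other filters, summaries, scalings and limma settings, a fit of only the groups compared, the replicate block, and leaving out arrays. The 93 values cover all members in the celastrol minus DMSO and DMSO comparisons, and only chosen members in the others. Calls of genes from the lists, such as Hr, Mlc1 and the clock genes, were not followed through the alternatives. The 53 reversals were all of values that did not pass the test. Replicate numbers shared by the titles showed no consistent pairing of the arrays. Of 22 same-numbered pairs 7 had deviations correlated above 0.1 (-0.24 to 0.41), and 5 of 22 arrays correlated best with their own number. With so few arrays a group, this check cannot exclude a pairing in some groups. With the replicate block the count of members called was the same in all 16 comparisons, at 1 for celastrol at 1 day against 6 h and for each treatment average and 0 elsewhere, while the genes called from 6 h to 1 day in the average went from 17 to 4. The cause of the changes below was not tested.

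The Fabp7 call of celastrol at 1 day against 6 h gave 0 members called with no filter, with only the groups compared and without the 2 arrays least correlated with their group (chosen after seeing the data; Fabp7 -0.45, adjusted p = 0.195 by limma), and 0 to 1 leaving out 1 array. From 6 h to 4 days in the average, the count was 0 with no filter and with quantile normalization again, 2 with array weights, and 0 to 2 leaving out 1 array. From 1 day to 4 days it was 0 with no filter and with only the groups compared, and 0 to 1 leaving out 1 array. For DMSO at 1 day against 6 h it was 1 with array weights, under limma-trend, under robust eBayes and without those 2 arrays, and 0 to 1 leaving out 1 array. For celastrol at 4 days against 1 day it was 1 with array weights.

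Signs that turned, all with values not past the threshold, were these. With median centring, celastrol minus DMSO was -0.0064 for Vim at 6 h and -0.0013 for Dio2 at 4 days, and in DMSO Thrb was -0.0010 (1 day against 6 h) and Crym -0.00099 (4 days against 6 h). With quantile normalization again, celastrol minus DMSO was -0.012 for Vim at 6 h, -0.014 for Dio2 and 0.0068 for Thra at 4 days, and in DMSO Thrb was -0.0079 (1 day against 6 h) and Nes 0.019 (4 days against 1 day). With array weights, celastrol minus DMSO was -0.015 for Vim at 6 h and 0.032 for Fabp7 at 1 day, and Nes in DMSO was 0.067 (4 days against 1 day). Without the 2 least correlated arrays, Fabp7 was 0.073 for celastrol at 1 day and 0.042 for the celastrol difference at 1 day minus that at 6 h, and Nes in DMSO was 0.068 (4 days against 1 day).

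Leaving out 1 array turned these celastrol differences at 6 h: Crym (-0.078 to 0.032), Vim (-0.074 to 0.064), Fabp7 (-0.0015 to 0.078), Col23a1 (-0.078 to 0.013) and Thra (-0.00093 to 0.026). At 1 day it turned Rax (-0.098 to 0.14), Dio2 (-0.041 to 0.26) and Fabp7 (-0.18 to 0.0057), and at 4 days Dio2 (-0.086 to 0.092), Thra (-0.013 to 0.0029) and Thrb (-0.030 to 0.020). In DMSO it turned Rax (-0.18 to 0.012) and Col23a1 (-0.068 to 0.024) at 1 day against 6 h, Dio2 (-0.067 to 0.0078) and Crym (-0.052 to 0.061) at 4 days against 6 h, and Nes (-0.093 to 0.068) at 4 days against 1 day. In celastrol it turned Vim (-0.0084 to 0.12) at 4 days against 1 day.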
